A study of Homo sapiens with 7 samples.

Results

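A set of 10 genes that mark epithelial adhesion and the epithelial-mesenchymal transition (EMT) were read on the arrays: the cadherins CDH1, CDH2 and CDH17, the adhesion molecule EPCAM, the filament protein VIM, and the transcription factors ZEB1, ZEB2, SNAI1, SNAI2 and TWIST1. They were chosen by name, as all non-control spots whose deposited gene name equals 1 of these 10 symbols. This gave 10 of the 36337 gene names on the array, with 15 of its 50599 probes and 24 of its 58717 spots. The RNA came from HCT116, a human colon carcinoma line, in a derivative carrying H2B-GFP, a histone tagged with green fluorescent protein. All samples used here were treated with bafilomycin A1, an inhibitor of the proton pump that acidifies lysosomes, at 10 nM for 30 h. The labels give medium with 10% serum, whereas the methods of the study give a lower serum share, and 100 ng of total RNA went into each labelling reaction. The study design counts these 4 samples as biological replicates, and each was hybridised to a single-colour array on the same slide. The 3 untreated samples of the line were not analysed here, so no value below is a response to bafilomycin A1. What can be read is which of these genes gave a signal in the treated cells and how closely the 4 replicates repeated it.

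Classical cadherins are calcium-dependent adhesion receptors, and CDH1 (E-cadherin) holds epithelial cells together through catenins that tie it to actin. During EMT the factors of the SNAI, ZEB and TWIST families repress CDH1, while mesenchymal cells typically carry CDH2 (N-cadherin) and vimentin filaments. Carcinoma lines can hold markers of both states in varying combinations.

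Detection of a probe on an array means here that the scanner software flagged over 50% of its spots as well above background. Of the 10 genes, 7 had a probe detected on all 4 arrays, namely CDH1, CDH2, EPCAM, VIM, ZEB1, SNAI1 and TWIST1. SNAI2 was detected on 2 arrays, and CDH17 and ZEB2 on none. Over all gene names on the array, 52.5% had a probe detected on all 4 arrays and 35.5% had a probe detected on none. Of the 15 probes of these genes, 8 were detected on all 4 arrays, beside 48.7% of all probes. Members of both the epithelial and the mesenchymal side therefore carried this flag in the treated cells. From each side 1 member, CDH17 and ZEB2, gave no signal well above background. For dim probes the flag alone does not show expression, since the leukocyte markers CD3E and PTPRC carried it on all 4 arrays too. The brightest probe of CD3E had intensities of 50.2 to 63.5 and that of PTPRC 84.0 to 127.8. Of the 5 probes of PTPRC only 1 was detected on all 4 arrays.

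**Figure D1:**
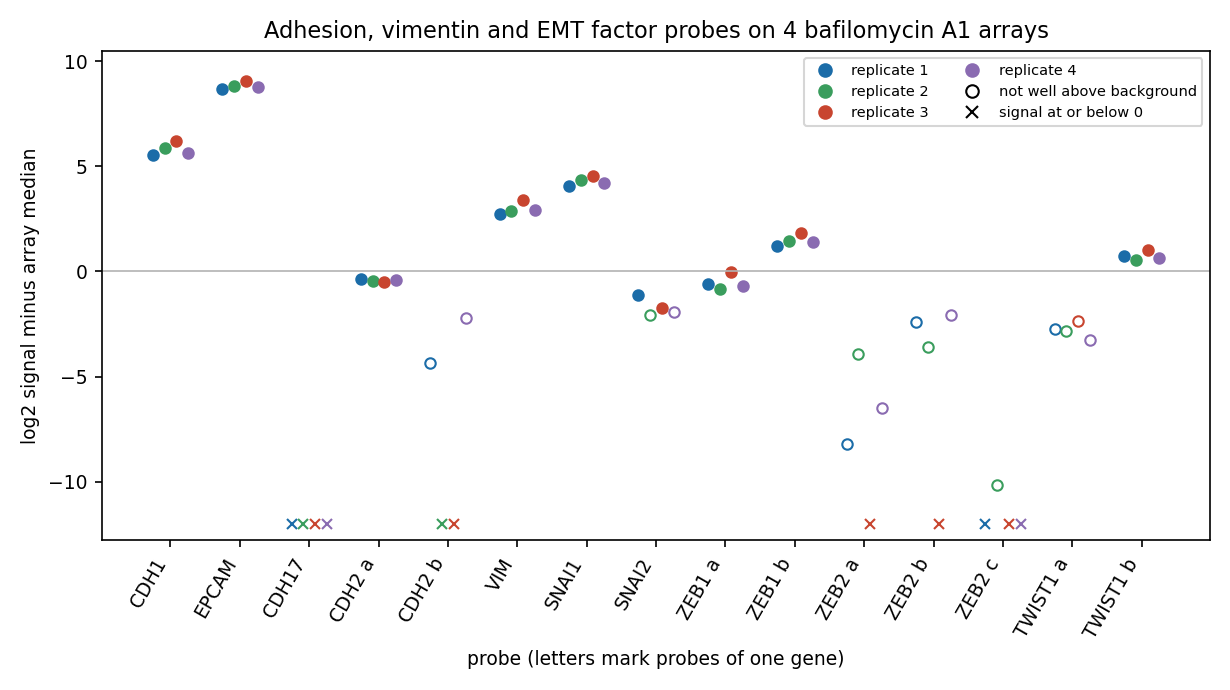
The log2 signal minus the median of the array (vertical axis) is plotted for each of the 15 probes on each of the 4 replicate arrays. Filled points were well above background, open points were not, and crosses at the foot of the plot mark signals at or below 0, which have no log2 value. Probes of CDH1, EPCAM, VIM, SNAI1 and ZEB1 were well above background on all 4 arrays, whereas CDH17 stayed at or below 0 on all 4. Heights of different probes are not comparable, since each probe has its own brightness.

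For CDH2 and ZEB1 the array carries a pair of probes each, and their sequences show that the probes of a gene read different places on its transcript. The last 30 bases of each probe are given, 5′ to 3′, because the hexamer AATAAA, the canonical polyadenylation signal that lies shortly before the end of many transcripts, is in 1 probe of each pair and is set in capitals. The positions are those of GRCh37, as deposited, and refer to the whole 60-base probe.
CDH2 probe a, chr18:25530936-25530995, minus strand: ccagcgttctgAATAAAatgctaattttgg
CDH2 probe b, chr18:25532081-25532140, minus strand: gggtgaacttggtttttggacaagtacaaa
ZEB1 probe a, chr10:31816261-31816320, plus strand: tcctgttcactactgtgtaaagtaaaaact
ZEB1 probe b, chr10:31818063-31818122, plus strand: actcccatctcacAATAAAatgcatcaaca
Between the probes of CDH2 lie 1085 bases and between those of ZEB1 1742 bases, and in both genes the probe with the hexamer is the one further downstream. Of the 15 probes 3 hold AATAAA, searched on the probe strand alone, and of all 50599 probes 7.88% do. The third of these is the downstream probe of TWIST1. Exon and UTR annotation of this build was not used here.

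Among the adhesion genes, CDH1 and EPCAM were detected on every array. The CDH1 probe (chr16:68869214-68869273) had a background-subtracted intensity of 3547, 4121, 5220 and 3109 on replicates 1, 2, 3 and 4. After log2 transformation and subtraction of the array median, the scale used for all log2 levels below, this was a level of 5.81 ± 0.31 (SD, n = 4). Replicate 3 was the brightest for CDH1 and replicate 1 the dimmest on the log2 level, and the 4 values spanned 1.62-fold. EPCAM, a homophilic adhesion molecule of epithelia whose probe lies at chr2:47613894-47613953, had intensities of 31964, 31838, 37083 and 28182. Its log2 level was 8.84 ± 0.15 (SD, n = 4) with a span of 1.27-fold, again with replicate 3 highest. The EPCAM values lay closer together than those of CDH1, and 27.7% of all detected probes had a smaller SD than EPCAM against 80.5% for CDH1.

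CDH17, the cadherin of liver and intestine, was at background throughout. The intensity of its only probe (chr8:95140458-95140517) was -3.32, -2.66, -1.18 and -3.58 on replicates 1 to 4, so that no log2 level exists on any array. A value below 0 here means that the spot was dimmer than the background estimate of the software.

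CDH2 gave a weak signal on 1 of its 2 probes. Probe a, which carries the hexamer, had intensities of 59.2, 50.9, 49.7 and 47.6 and was well above background on all 4 arrays. Its log2 level was -0.44 ± 0.05 (SD, n = 4), with the 4 arrays within 1.08-fold of each other. Only 1.30% of all detected probes repeated more closely. With centring on the 75th percentile the SD of this probe was 0.13. Probe b, 1085 bases upstream, had intensities of 3.81, -8.85, -4.18 and 13.6 and was well above background on none. The negative control spots of the arrays, which match no transcript, put a limit on how firmly the signal of probe a can be read. The 99th percentile of their intensity was 95.3 on replicate 1 and 12.4, 28.6 and 20.9 on replicates 2 to 4, so probe a lay above it on 3 arrays and below it on replicate 1.

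VIM was detected on every array. Its probe, whose 60 bases span 910 bases of the genome (chr10:17278347-17279256) and so cross an intron, had intensities of 516, 518, 736 and 477. The log2 level was 2.98 ± 0.28 (SD, n = 4). Replicate 3 stood highest, and the span of 1.57-fold over the 4 arrays fell to 1.12-fold when replicate 3 was left out.

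Of the 5 EMT transcription factors, SNAI1, ZEB1 and TWIST1 were detected on all 4 arrays. SNAI1, a zinc-finger repressor of CDH1, had intensities of 1270, 1429, 1610 and 1187 at its probe (chr20:48605170-48605229), a log2 level of 4.28 ± 0.20 (SD, n = 4). The related factor SNAI2, also known as Slug (chr8:49830710-49830769), had 34.9, 16.8, 21.0 and 16.5 and was well above background on replicates 1 and 3 alone. The negative controls of replicate 1 reached higher than its SNAI2 signal, and SNAI2 exceeded their 99th percentile on 1 array, replicate 2.

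ZEB1, a zinc-finger and homeodomain repressor, was detected with both probes. Intensities of probe a were 51.4, 39.7, 68.4 and 39.2, and those of probe b 180, 192, 251 and 169. The log2 level was -0.53 ± 0.34 for probe a and 1.48 ± 0.26 for probe b (SD, n = 4 each). On both probes replicate 3 was highest, while the lowest replicate differed between them, replicate 2 for probe a and replicate 1 for probe b. Probe a lay below the 99th percentile of the negative controls on replicate 1. With the median over both probes taken as the level of ZEB1, replicates 1, 2 and 4 lay at 0.32, 0.32 and 0.36 and replicate 3 at 0.90 on the log2 scale. Replicate 3 was thus set apart from 3 arrays that repeated within an SD of 0.02, a closeness that neither probe shows by itself (SD without replicate 3 of 0.12 on each). By Dixon's ratio, the gap to the nearest array over the whole range, 8.48% of all detected genes had 1 array apart in this way, and of the 7 detected members ZEB1 did.

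ZEB2, the paralogue of ZEB1, has 3 probes, and none was well above background on any array. The probe at chr2:145146261-145146320 had intensities between -0.24 and 4.58, the probe at chr2:145182363-145182422 between -0.47 and 15.1, and the probe at chr2:145268973-145269032, designed to a non-coding transcript, between -11.8 and 0.06. On replicate 3 all 3 probes were below 0, so ZEB2 has no log2 level there.

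TWIST1, a basic helix-loop-helix factor, was detected with 1 of 2 probes. The detected probe (chr7:19156462-19156521) had intensities of 127, 103, 143 and 99.8 and a log2 level of 0.74 ± 0.20 (SD, n = 4). The other probe, 757 bases downstream at chr7:19155645-19155704, read 11.6, 9.69, 13.5 and 6.68 and was well above background on none. GC content was 55% in the detected probe and 26.7% in the other. In TWIST1 the downstream probe with the hexamer was the one at background, the reverse of CDH2. A detected gene with an undetected probe was common: among all detected genes with several probes, 49.7% had at least 1 probe that was not detected on all 4 arrays. Whether the transcript end, the base composition or the design of a probe plays a part in these pairs was not tested.

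The detection calls depended on the rule for the weakest genes. A rule that asks for a signal above 0 and significantly different from background called 8 of the 10 genes on all 4 arrays, adding SNAI2, and gave ZEB2 a call on 3 arrays. A rule that asks for a signal above the 99th percentile of the negative controls called 6, losing CDH2, which passed on 3 arrays. CDH1, EPCAM, VIM, SNAI1, ZEB1 and TWIST1 were called on all 4 arrays and CDH17 on none under each of these 3 rules.

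The CDH1 probe is printed as 10 spots on each array, which shows how closely the spots of a single hybridisation repeat. Within an array the log2 SD of the spots used was 0.15, 0.21, 0.14 and 0.15, or 0.16 pooled, beside an SD of 0.31 between arrays. Much of the spread within an array was a fixed pattern of spot position. The same spot was the brightest on all 4 arrays, 3 of the 10 spots lay above the mean of their array on all 4 and 5 lay below it on all 4. Once the mean of each spot position was taken off, the log2 SD within an array fell from 0.20 over all 10 spots to 0.03. The brightest spot was marked as outlying on 3 arrays and was kept on replicate 2. Over the 9 spots marked on no array, the log2 levels were 5.52, 5.82, 6.21 and 5.61 on replicates 1 to 4, and their SD between arrays was again 0.31. Spots of an array share the RNA, the labelling and the hybridisation, so these SDs cover the reading of spots alone, and the error of labelling and hybridisation cannot be told apart from the differences between samples. Across the 673 detected probes printed 10 times, the median SD was 0.18 within an array and 0.20 between arrays. For these probes, as for CDH1, the SD within an array is of single spots and that between arrays is of averages over spots. Their sizes are therefore not directly comparable.

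**Figure D2:**
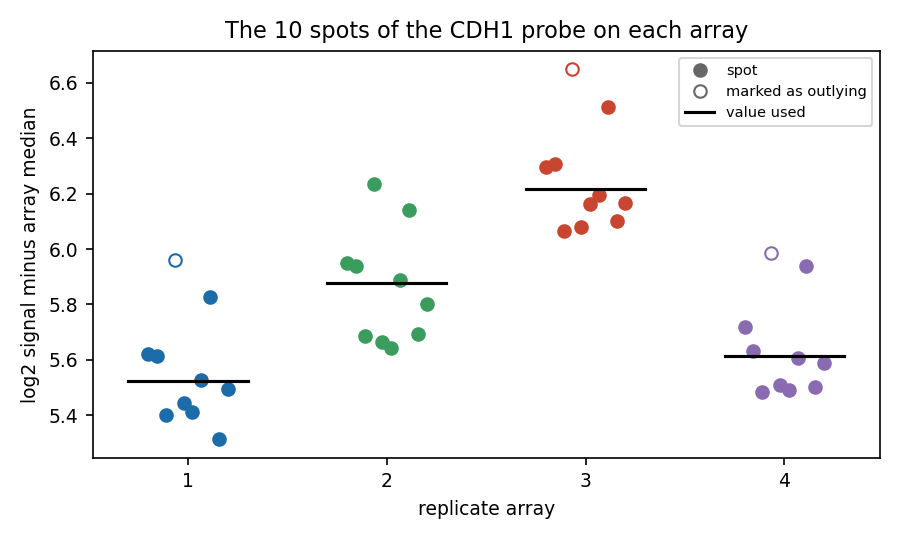
Log2 signal minus the array median (vertical axis) of the 10 CDH1 spots on each replicate array (horizontal axis), drawn in the same left-to-right order of spots on every array. Open points were marked as outlying and left out, and black lines show the value used. The pattern of bright and dim spots recurs on every array, with replicate 3 shifted upwards as a whole to a level of 6.22.

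Replicate 3 was the highest array for nearly all detected members. Of the 8 detected probes, 7 were highest on replicate 3, with CDH2 the exception. Replicate 1 was lowest for 5 of the 8, beside 27.9% of all detected probes. Many other genes shared this, as 50.4% of all detected probes were highest on replicate 3, and 2249 spots of that array were marked as outlying, against 514, 725 and 527 on replicates 1, 2 and 4. The count of 7 stayed when the processed signal was centred on the 75th percentile and when normexp background correction was followed by quantile normalization, where 42.8% and 37.9% of all detected probes were highest on replicate 3. What set replicate 3 apart was not tested.

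How far each member followed the shift of its array was read against probes of similar signal, those whose mean log2 level was within 0.5 of the member's. On replicate 3 EPCAM lay 0.20 above its own 4-array mean and the median of such probes lay 0.17 above theirs, and for SNAI1 the log2 deviations were 0.23 and 0.18. These 2 genes moved with the bulk of the array. CDH1 and VIM both lay 0.41 above their means, against 0.18 and 0.13 for probes of similar signal. For ZEB1 the deviations were 0.50 against -0.02 with probe a and 0.36 against 0.05 with probe b, and for TWIST1 0.28 against 0.01. On replicate 3 CDH1, VIM, ZEB1 and TWIST1 thus lay above the median of probes of their own brightness, and a single array gives no test of this. Where they rank among those probes is not given. The median SD of such probes between arrays was 0.17 for CDH1, 0.20 for VIM, 0.21 for TWIST1 and 0.26 for ZEB1 probe a. CDH2 lay at -0.06 on that array, close to the -0.02 of its like.

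**Figure D3:**
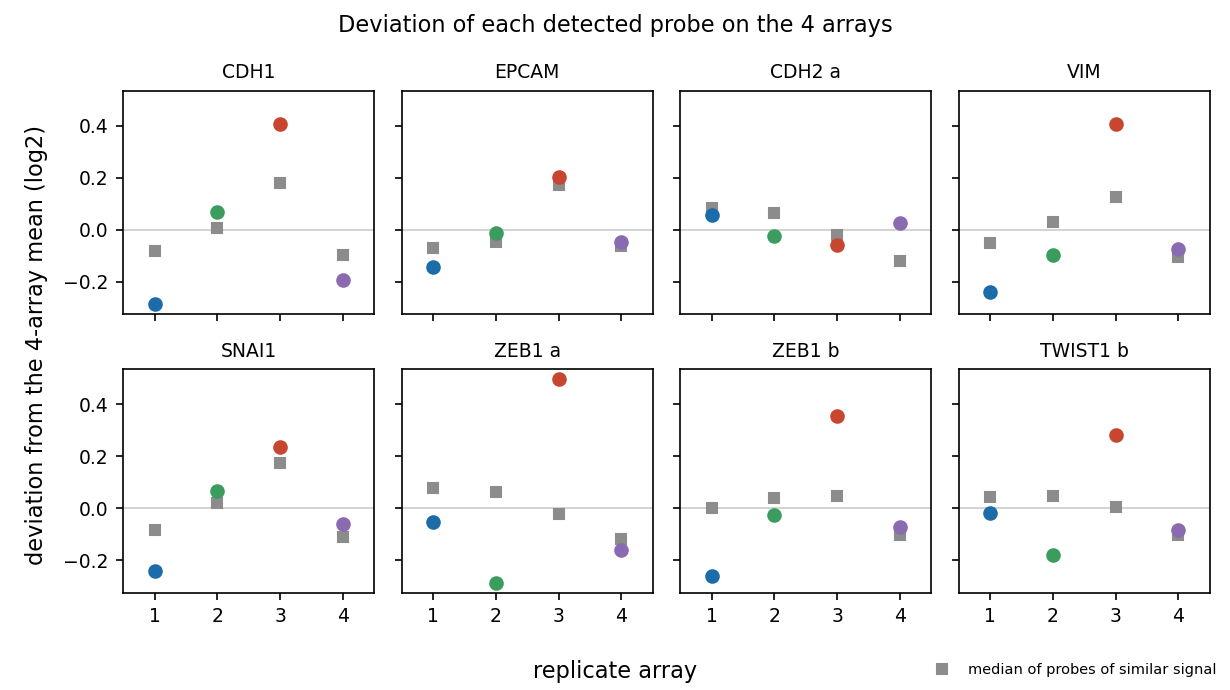
Deviation of each of the 8 detected probes from its own 4-array mean on the log2 scale (vertical axis, circles) on replicates 1 to 4 (horizontal axis), with the median deviation of probes of similar signal as grey squares. On replicate 3 the circles of CDH1, VIM, TWIST1 and both ZEB1 probes lie above the squares, those of EPCAM and SNAI1 lie near them, and that of CDH2 lies slightly below.

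The spread between replicates sets the size of difference these arrays could resolve for each gene. Spans above 1.4-fold between arrays were seen for 4 of the 8 detected probes, those of CDH1, VIM and ZEB1 (2 probes), beside 43.5% of all detected probes. The median SD of all detected probes was 0.20 on the log2 scale, which SNAI1 and TWIST1 matched and which VIM, CDH1 and both ZEB1 probes exceeded. Without replicate 3 the SD fell from 0.31 to 0.18 for CDH1, from 0.15 to 0.07 for EPCAM, from 0.28 to 0.09 for VIM and from 0.20 to 0.08 for TWIST1. Leaving out the highest value usually lowers an SD, and no share over all detected probes is given beside these falls. After normexp and quantile normalization no member probe spanned more than 1.4-fold, beside 16.8% of all detected probes, and the SD was 0.19 for CDH1, 0.06 for EPCAM, 0.20 for VIM and 0.10 for SNAI1. The size of the error attached to a member therefore rested on replicate 3 and on the scaling, and so did the order of the members, since ZEB1 probe a had the largest SD of the 8 probes with the scaling of the study (0.34) and VIM after quantile normalization (0.20).

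**Figure D4:**
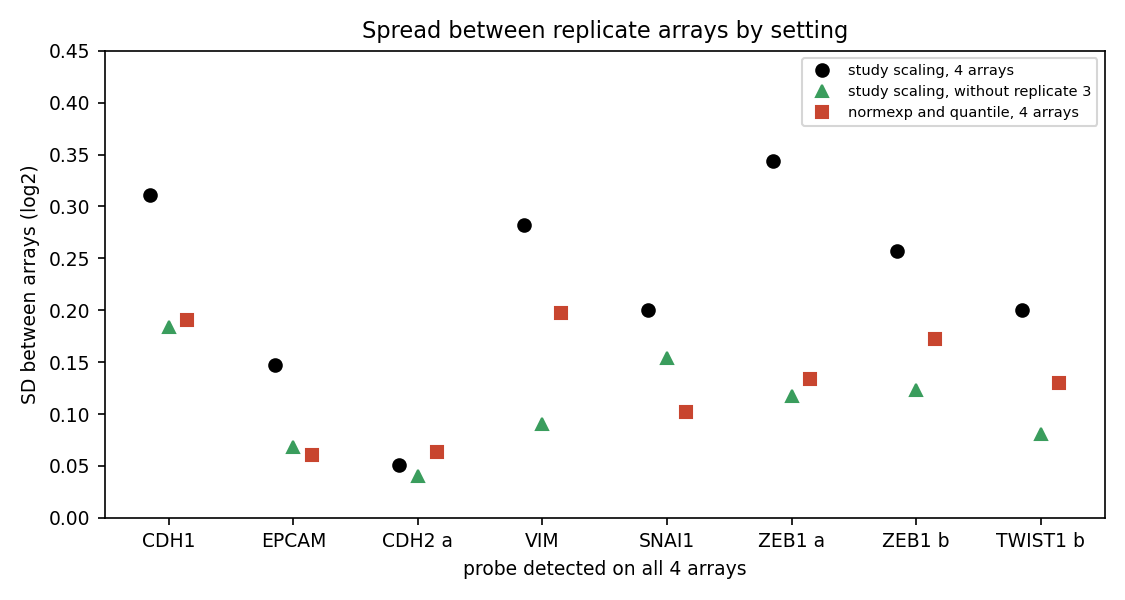
SD between arrays on the log2 scale (vertical axis) for the 8 detected probes, from 4 arrays with the scaling of the study (circles), without replicate 3 (triangles) and from 4 arrays after normexp and quantile normalization (squares). The SD is lower without replicate 3 for each probe, and CDH2 probe a has an SD of 0.05 under the scaling of the study.

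When probes were combined per gene by their median, as the methods of the study do, CDH2 changed most. Its second probe has a log2 level only on replicates 1 and 4, where its signal was above 0, and the gene median fell to -2.36 and -1.32 there against -0.46 and -0.50 on replicates 2 and 3. The SD of CDH2 rose from 0.05 for probe a to 0.89 for the gene, and the gene spanned 3.73-fold. TWIST1 likewise changed from an SD of 0.20 for its detected probe to 0.26 for the median over both. By this measure 5 of the 7 detected genes spanned more than 1.4-fold, beside 46.4% of all detected genes, 6 were highest on replicate 3, beside 48.5%, and the median SD of the 7 was 0.28 on the log2 scale against 0.21 over all detected genes.

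Genes that work with these members were read from lists chosen by name. Over 123 other genes, each counted in 1 place, 75 were detected on all 4 arrays, 10 on some and 38 on none, a share of 61.0% detected beside 52.5% of all gene names. A probe whose spots on an array were all marked as outlying counted as not detected there. With outlying spots kept, 78 of these genes were detected on all 4 arrays. Of the 10 catenins and partners that bind cadherins, 7 were detected on all 4 arrays, among them CTNNB1 (beta-catenin), CTNNA1 (alpha-catenin), CTNND1 (p120) and JUP (plakoglobin). CTNNA2, CTNNA3 and CTNND2, catenins best known from neural and heart tissue, were detected on none. The SDs between arrays on the log2 scale were 0.23 for CTNNB1, 0.08 for CTNNA1, 0.29 for CTNND1 and 0.19 for JUP, and 5 of the 7 detected genes of the list were highest on replicate 3.

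Cadherins other than the members were mostly at background. Of 19, detection on all 4 arrays was found for 5, namely CDH3 (P-cadherin), CDH5, CDH15, CDH22 and CDH24, and 12 were detected on none. CDH3, an epithelial cadherin, had intensities between 7824 and 11726 on the 4 arrays. CDH22 had 6053 to 8852 and CDH15 619 to 801, whereas CDH24 and CDH5 were dim, with 163 to 259 and 96.8 to 167. All 7 partners and proteases of EPCAM were detected, including CLDN7 (claudin-7) and the sheddase ADAM17. Of 9 other filament genes of the vimentin and neural type, 4 were detected on all 4 arrays, and NEFL and NEFM, both of neurofilaments, on none.

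Regulators of the epithelial state were widely detected. Of 14 transcription and splicing regulators, 12 were detected on all 4 arrays and HNF4A on none. These include ESRP1 and ESRP2, splicing factors of epithelia, and OVOL1 and OVOL2, repressors of EMT factors. OVOL2 was dim, with intensities of 109 to 170, whereas OVOL1 had 2025 to 2725, ESRP1 510 to 678 and ESRP2 1893 to 2515. GRHL2 and GRHL3 of this list were dim too, with 156 to 225 and 47.4 to 84.2 on their brightest probes. Among 9 further EMT transcription factors, SNAI3, TCF3 and FOXC1 were detected on all 4 arrays and 4 on none. SNAI3 was dim, with intensities of 124 to 186, whereas TCF3 had 9752 to 11680 and FOXC1 2916 to 4071. All 11 corepressors of EMT factors were detected, and all 7 genes of SNAI protein turnover were too, among them GSK3B and BTRC, which mark SNAI1 for degradation. Each of those 7 was highest on replicate 3, beside 48.5% of all detected genes. In the other lists of this paragraph this held for 5 of 12 detected regulators, 2 of 3 EMT factors and 7 of 11 corepressors. Spans of the 7 turnover genes between arrays ran from 1.12-fold (FBXL14) to 1.44-fold (FBXL5).

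Of 20 mesenchymal matrix and contractile genes, 9 were detected on all 4 arrays and 10 on none, beside 52.5% and 35.5% of all gene names. The detected ones were SPARC, COL1A1, COL5A1, COL5A2, COL6A1, ACTA2, TAGLN, S100A4 and MMP9. Of these SPARC, COL5A1 and COL5A2 were dim, with highest intensities of 105, 90.2 and 76.4, and TAGLN and MMP9 reached 204 and 243. COL6A1 had 12743 to 20913 and S100A4 had 62660 to 92190. FN1 (fibronectin), which EMT commonly raises, was among those detected on none.

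**Figure D5:**
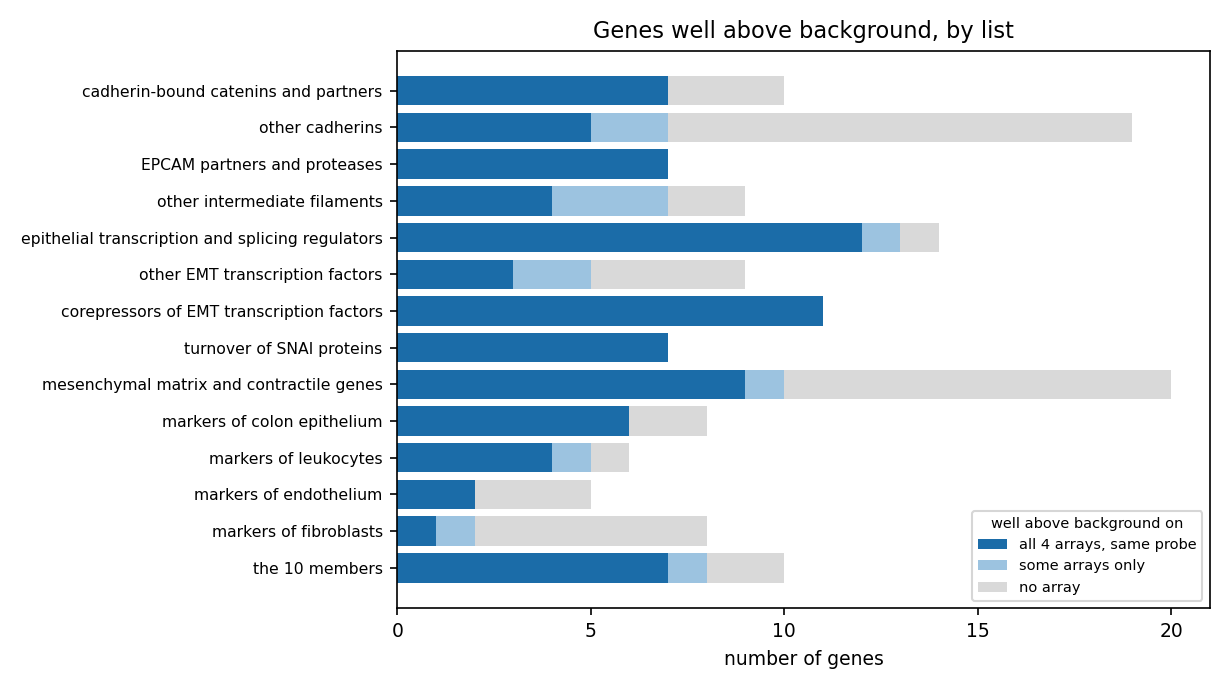
Number of genes (horizontal axis) of each list with a probe that was well above background on all 4 arrays (dark blue), with detection on some arrays but no single probe on all 4 (light blue) or on no array (grey). All 7 EPCAM partners and proteases, 11 corepressors and 7 SNAI turnover genes were detected on all 4 arrays, against 5 of 19 other cadherins and 1 of 8 fibroblast markers.

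The labelled cell type was checked against its markers. Of 8 markers of colon epithelium 6 were detected on all 4 arrays, including the keratins KRT8, KRT18 and KRT19, while VIL1 and GPA33, both defining for differentiated intestinal epithelium, were detected on none, as CDH17 was. The transcription factor CDX2 was detected on all 4 arrays too, with intensities of 893 to 1092. KRT20 and LGALS4, also detected, were dim, with intensities of 39.8 to 100.1 and 40.0 to 60.3. The intensities of each list were summed per array, with the mean over the probes of a gene and values below 0 set to 0. These sums are dominated by the brightest probes and are not comparable between lists. The sum for the colon list, carried by KRT8, KRT18 and KRT19, was between 355080 and 424030 on the 4 arrays. Of the 8 fibroblast markers COL1A1 was detected on all 4 arrays and 6 were detected on none, with a summed intensity of 405 to 683. Endothelial markers numbered 5, of which VWF and CDH5 were detected and 3 were not, with a sum of 169 to 266. Of 6 leukocyte markers 4 were detected and LAPTM5 was not on any array, with a sum of 259 to 352. CDH5 stands in both the cadherin and the endothelial list, and CDX2 in both the regulator and the colon list. The 8 fibroblast markers all stand in the mesenchymal list too. The labels name a single cell line and no other cells. What gave the dim signals of leukocyte and endothelial markers was not tested, nor was the source of the VIM, CDH2 and ZEB1 signals.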

How the data were processed

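Gene expression was measured on single-colour Agilent arrays in 4 bafilomycin A1-treated samples. The authors deposited 1 scanner file per array of linear intensity values from which Feature Extraction 10.7.3.1 (version from the submitters' processing notes) had subtracted the background. They were not normalized between arrays, and the deposited files also hold flags for spots that are well above background, positive and significant, or outlying. Spots marked as outlying in the feature or its background and control spots were left out, and spots of a probe were averaged. No spot was saturated (0 on each array). As in the methods of the study, intensities were log2 transformed and centred on the array median, and a gene took the median of its probes. No log2 value exists for a signal at or below 0. Results lead with single probes, and means and SDs over the 4 arrays are given. The number of arrays limits the precision, and no test between groups was possible because the untreated samples were not analysed here.

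A gene counted as detected when a probe was well above background in more than 50% of its spots on each of the 4 arrays. A ratio after Dixon marked values with 1 array apart. Named are all 10 members with every probe and, of each other list, the detected genes or those at background on every array, whichever were fewer, up to 6. Further genes named with a role or an intensity were picked after their values were seen. An item of these lists is not reported here. Members and lists were chosen with earlier results of these data known. Alternatives were other detection rules, outlying spots kept, centring of the processed signal on its 75th percentile, normexp with an offset of 50 and quantile normalization in limma 3.58.1, other choices of probes, the mean over probes and each array left out. The table of spot positions of CDH1 was added after seeing the data. Statistics were tested on simulated data. The accessions of all 15 probes matched their symbols in a RefSeq table, whose coordinates were not used. The analysis used R 4.3.3, Python 3.11.15, numpy 2.4.6, pandas 2.3.3 and matplotlib 3.10.9.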

Additional observations from a re-analysis of the deposited data

Results flagged for a closer look

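ZEB1 was singled out because 1 of its 4 arrays lay far from the others. With the median over its 2 probes as the level, the gap between replicate 3 and the nearest array made up 0.932 of the whole range. Neither probe passes the limit by itself, with a ratio of 0.70 for probe a and 0.62 for probe b. Of 13 values of these genes and probes examined in this way 1 had an array apart, chance gives about 5%, and 8.48% of all detected genes had an array apart.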

How the results depend on the processing

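Under every alternative run, between 6 and 8 of the 10 genes were detected on all 4 arrays, and 68 to 87 of the genes of the lists. The number of members at background on every array was 2, and 1 when a signal above 0 and significantly different from background was asked for. The count of members spanning more than 1.4-fold was 5. It was 3 with only probes detected on all 4 arrays and 0 after normexp and quantile normalization, where the median SD was 0.12 in place of 0.28 and 0 members had an array apart. In an alternative chosen after seeing the data, this normalization with only probes detected on all 4 arrays, the count was 0, the median SD 0.13 and the members with an array apart 0. Leaving out each array in turn, the count ranged from 1 to 5 and the median SD from 0.15 to 0.34, the lowest of both without replicate 3. The members detected on all remaining arrays stayed 7 and those at background 2 in each of these, with 76 to 77 genes of the lists detected.

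Log2 levels of all 7 detected members moved beyond their spread under the 75th percentile and under normexp with quantile normalization, and that of 1 of 7, TWIST1, with detected probes only. The 75th percentile lowered all 7. It is a higher zero point than the median, so a fall is built into this centring and is no measure of repeatability. Normexp with quantile normalization lowered CDH1, EPCAM, VIM and SNAI1 and raised CDH2, ZEB1 and TWIST1. The raised members had the lowest levels with the scaling of the study, -1.16, 0.47 and -1.03. This setting adds an offset to the signals, and its share in these moves was not tested apart from the quantile step. No paired analysis was possible because replicate numbers are shared only with the untreated samples, which were not analysed here. Signals near the negative controls, those of CDH2, SNAI2, TWIST1 and ZEB1 probe a, limit what can be read from their levels. The brightest negative control spot reached 428 on replicate 1 and 365 on replicate 2, above every TWIST1 and ZEB1 intensity.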
